A study of Arabidopsis thaliana with 32 samples.

Results

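The 42 genes described here encode 17 proteins, between S2 and S19, of the small subunit of the cytosolic ribosome of Arabidopsis thaliana. The set holds 1 to 3 gene copies for each of them, and neither genes of S12, S15 and S17 nor every copy of S15a. It may lack copies of other proteins as well. They were taken by gene identifier from tables of 11 comparisons of root RNA, which together hold 10961 entries for 4882 loci. Of the 42 genes, 27 were listed in at least 1 table and 15 in none, and these 27 belong to 15 of the 17 proteins. The S8 genes and the single S15a gene of the set were not listed. Of the 27, 15 were in 1 table, 11 in 2 and 1 in 3 tables. The listed genes made 40 entries, of which 39 were lower and 1 was higher in the first-named group of the comparison. Over all genes, 6070 of the 10961 entries were lower.

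Seedlings of the Sku5 mutant and of the wild type Wassilewskija (WS) were grown on upright agar plates in spaceflight, in the Veggie plant unit of the International Space Station, or as ground controls in a chamber on Earth that repeated the conditions recorded on the station. They were fixed in RNAlater at 4 d or 8 d, and roots were dissected after return. The 8 groups were spaceflight (FLT) Sku5 at 8 d, spaceflight WS at 8 d, spaceflight Sku5 at 4 d, spaceflight WS at 4 d, and the 4 matching ground control (GC) groups. Each group had 4 samples, of 2 to 3 roots each at 8 d and 5 to 8 roots each at 4 d. The labels give no allele for Sku5, and nothing states how many plates or parent plants the samples came from. Flight roots of 4 d were not compared between the genotypes here.

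The cytosolic ribosome translates the nuclear messages of the cell. Its small subunit binds the messenger RNA and reads its codons, and the proteins described here coat its ribosomal RNA, together with the other proteins of the subunit. The subunit has a head, a body and a platform, and proteins were placed in them here by their positions in yeast ribosomes. In plants each protein is encoded by several gene copies at separate loci, the messages are abundant wherever cells grow and divide, and the copies usually give nearly the same protein. In roots the dividing cells sit in the meristem at the tip.

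Each table gives 1 level per group and locus, in FPKM, a read level scaled to transcript length and library size, and only loci that the authors called with Cuffdiff at a false discovery q-value under 0.05. No values of separate samples were used, so neither the spread between the 4 samples nor an overlap of groups can be shown, and depth per sample is unknown. Here "called" means listed in such a table, and every q-value below is that of the authors' deposited table. The standard error (SE) is the deposited log2 fold change divided by the deposited test score. It is a rough scale, since the fold change of the 40 entries was between 1.47 and 3.00 SE, and under 2 SE in 28 of them, while the authors called all 40. A gene that is not listed was either not tested or not called, so its absence does not show an equal level. In bulk roots, fewer cells of a type and less RNA per cell cannot be told apart.

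The labels were checked on SKU5 (AT4G12420), the gene that names the mutant. Its level was 10.4 FPKM in Sku5 and 38.9 FPKM in WS ground roots at 4 d, 23.5 FPKM in Sku5 and 78.6 FPKM in WS ground roots at 8 d, and 14.2 FPKM in Sku5 and 61.9 FPKM in WS flight roots at 8 d. It was called lower in Sku5 in each of these 3 comparisons.

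**Figure D1:**
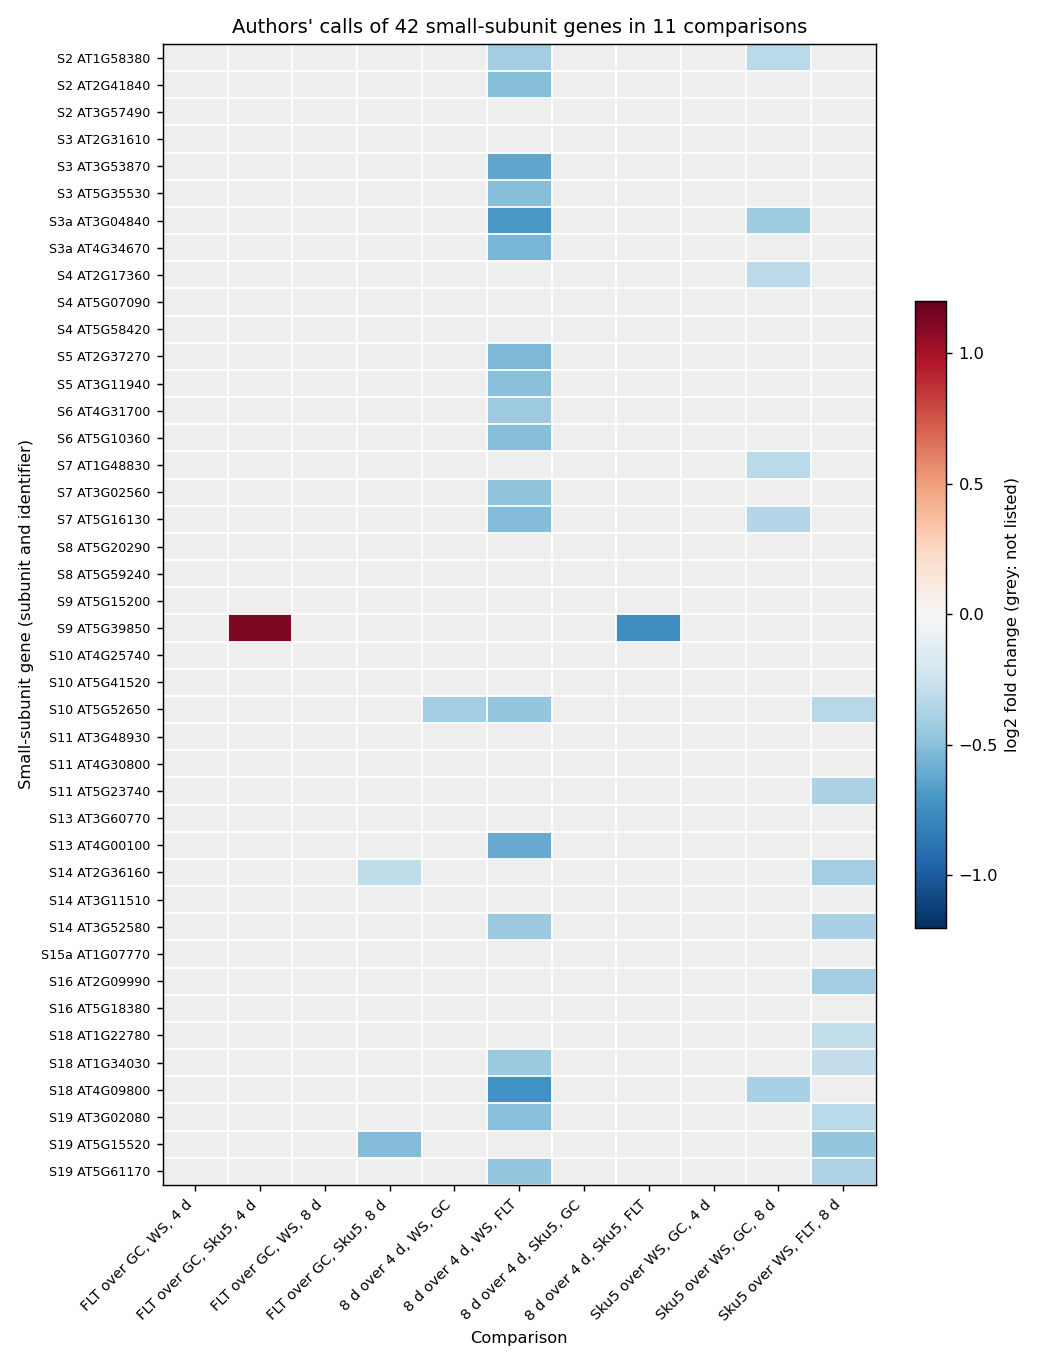
Log2 fold change of each of the 42 small-subunit genes (rows, ordered by protein) in each of the 11 comparisons (columns), with the first-named group over the second; blue is lower, red is higher and grey is not listed. The calls are concentrated in 3 columns, with 19, 10 and 6 genes lower, and the only red cell is an S9 gene.

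Sequences of a pair of S16 genes and a pair of S9 genes show how far gene copies can be told apart by reads, which bears on every value below. The coding sequences of the 42 genes had between 73.9% and 98.2% identity with the nearest other coding sequence and a median of 85.6%. For 3 genes the identity was at least 95%, and these are uncertain because reads may be shared. They are the pair of S16 genes and the S2 gene AT1G58380, which had 97.5% identity with AT1G58684, a gene outside the set. The S16 copies, AT2G09990 (chr2:3781328-3782335, plus strand) and AT5G18380 (chr5:6089712-6090804, minus strand), differ at 7 of their first 300 coding bases, shown in capitals. Only AT2G09990 was listed in a table, and its counterpart in none. The other unlisted genes were AT3G57490 of S2, AT2G31610 of S3, AT5G07090 and AT5G58420 of S4, AT5G20290 and AT5G59240 of S8, AT5G15200 of S9, AT4G25740 and AT5G41520 of S10, AT3G48930 and AT4G30800 of S11, AT3G60770 of S13, AT3G11510 of S14 and AT1G07770 of S15a.
S16 AT2G09990: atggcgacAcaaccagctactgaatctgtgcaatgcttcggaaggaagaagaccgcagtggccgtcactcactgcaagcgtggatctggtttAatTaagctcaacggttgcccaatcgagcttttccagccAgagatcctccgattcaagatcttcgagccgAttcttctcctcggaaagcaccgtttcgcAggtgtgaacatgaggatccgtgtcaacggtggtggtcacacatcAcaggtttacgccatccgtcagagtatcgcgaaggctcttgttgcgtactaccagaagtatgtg
S16 AT5G18380: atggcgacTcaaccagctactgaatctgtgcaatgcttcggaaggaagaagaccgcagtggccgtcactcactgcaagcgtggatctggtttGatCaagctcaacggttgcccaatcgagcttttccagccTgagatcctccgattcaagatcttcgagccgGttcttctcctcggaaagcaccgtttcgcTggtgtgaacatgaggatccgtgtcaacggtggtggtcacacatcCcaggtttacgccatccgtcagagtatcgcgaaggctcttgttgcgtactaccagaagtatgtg
The S9 copies, AT5G39850 (chr5:15949910-15951475, plus strand) and AT5G15200 (chr5:4934810-4936429, minus strand), were far easier to separate. Their first 150 coding bases differ at 35 positions, again in capitals.
S9 AT5G39850: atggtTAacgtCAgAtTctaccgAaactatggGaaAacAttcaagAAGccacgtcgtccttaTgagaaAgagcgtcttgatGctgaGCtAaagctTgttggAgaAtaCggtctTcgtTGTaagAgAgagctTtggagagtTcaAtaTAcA
S9 AT5G15200: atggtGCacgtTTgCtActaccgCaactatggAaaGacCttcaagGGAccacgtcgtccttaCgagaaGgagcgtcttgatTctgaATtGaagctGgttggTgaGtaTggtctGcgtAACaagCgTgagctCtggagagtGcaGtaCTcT
AT5G39850 is the gene of the only rise reported below, and AT5G15200 was listed in no table. All these sequences and coordinates are RefSeq's, on assembly TAIR10.1 of the Columbia accession, and not those of the WS or Sku5 plants.

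The comparison of ages in WS roots in spaceflight held the most small-subunit genes. Of the 42 genes, 19 were called lower at 8 d than at 4 d and none higher, over 11 of the 17 proteins. They are 70.4% of the 27 listed genes, a set that a gene enters by being called, in this comparison or another. Of all 4882 loci listed in any table, 12.4% were lower in this comparison. The 19 are 45.2% of the 42, and the lower loci were 2.2% when set over 27562 protein-coding genes. Not all of those genes need have been tested. Below, a share of all loci is a share of these 4882, unless it is set over protein-coding genes. The log2 fold changes lay between -0.73 and -0.42, with a median of -0.51 and a median SE of 0.28. All 606 lower loci of the table had a median of -0.81 and a median SE of 0.41. Both medians are over called loci, and a smaller SE lets a smaller change be called. Their levels were high: the lowest of the 19 stood above 82.8% of the loci of the table. Among the 181 loci at or above that level, 82.3% were lower.

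The greatest fall was in RPS18C (AT4G09800), a copy of head protein S18. Its level was 671 FPKM in WS flight roots at 8 d and 1111 FPKM at 4 d, a log2 fold change of -0.73 (SE 0.29, q = 0.00218). The S18 copy AT1G34030 had 797 FPKM at 8 d and 1082 FPKM at 4 d (log2 fold change -0.44, q = 0.0276). The remaining S18 copy, AT1G22780, known as POINTED FIRST LEAF after the leaf shape of its mutant, was not listed here.

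Both copies of platform protein S3a were lower. AT3G04840 had 825 FPKM at 8 d and 1331 FPKM at 4 d, a log2 fold change of -0.69 (SE 0.29, q = 0.00218). AT4G34670 had 666 FPKM at 8 d and 973 FPKM at 4 d, a log2 fold change of -0.55 (SE 0.28, q = 0.00218). S3a lies near the site where the messenger RNA leaves the subunit. RPS13A (AT4G00100), the S13 copy whose mutants also have pointed first leaves, was the most abundant of the 19, at 1725 FPKM at 8 d and 2625 FPKM at 4 d (log2 fold change -0.61, SE 0.32, q = 0.00912).

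Of the S3 genes, whose protein lines the channel where messenger RNA enters, AT3G53870 had 739 FPKM at 8 d and 1140 FPKM at 4 d (log2 fold change -0.63, SE 0.28, q = 0.00218). Its copy AT5G35530 had 540 FPKM at 8 d and 767 FPKM at 4 d. Both S5 genes were lower, RPS5A (AT3G11940) with 1370 FPKM at 8 d and 1940 FPKM at 4 d, and RPS5B (AT2G37270) with 689 FPKM at 8 d and 999 FPKM at 4 d. The promoter of RPS5A is widely used to drive transgenes in dividing plant cells. RPS5B lay closest to the threshold, at q = 0.0489.

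Both S6 genes were also lower. S6 is the substrate of S6 kinase in the TOR growth pathway. AT4G31700 had 837 FPKM at 8 d and 1134 FPKM at 4 d, and AT5G10360 had 451 FPKM at 8 d and 643 FPKM at 4 d. By place in the subunit, the 19 were 9 of the 16 genes of head proteins, 4 of 7 of platform proteins, 4 of 16 of body proteins and 2 of the 3 genes of S7, which was not placed. None of the genes of S4, S8, S9, S11, S15a or S16 was listed. The genes not given singly, of S2, S7, S10, S14 and S19, had log2 fold changes between -0.52 and -0.42, and the S7 gene AT5G16130 shares its locus with AT5G16120. At q under 0.01, 6 of the 19 calls remain. Summed over the 19 genes, the level was 15709 FPKM at 8 d and 22722 FPKM at 4 d, a ratio of 0.691.

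**Figure D2:**
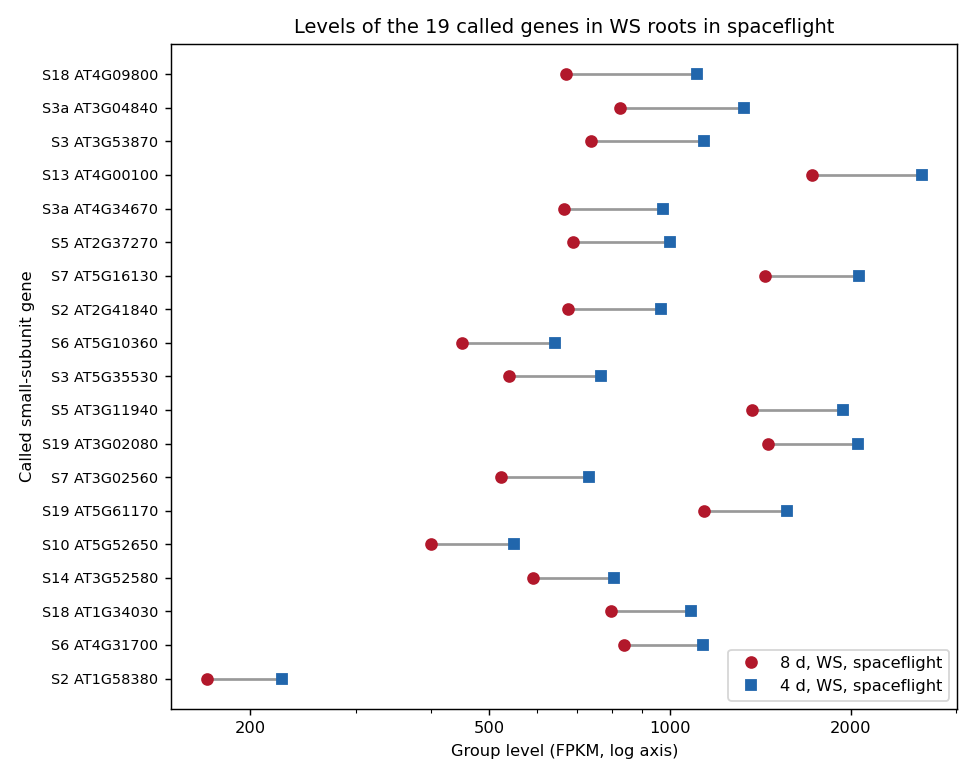
Group levels (FPKM, log axis) of the 19 called small-subunit genes (rows) in WS roots in spaceflight, at 8 d (red circles) and 4 d (blue squares), joined by a line; there is 1 value per group. Every circle lies to the left of its square, from the lowest gene, the S2 gene AT1G58380 (169 FPKM at 8 d, 226 FPKM at 4 d), to the highest, RPS13A.

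Other transcripts changed between the same groups. Of 11 green shoot markers, 5 were listed and all 5 were lower at 8 d, with a summed level of 102 FPKM at 8 d and 528 FPKM at 4 d. Of 13 seed reserve markers, 4 were listed, all with 0 FPKM at 8 d and together 165 FPKM at 4 d. Of 10 root markers only SCARECROW, a gene of the ground tissue, was listed, with 6.35 FPKM at 8 d and 13.6 FPKM at 4 d. Of 14 cell cycle genes none was listed in any table. In WS ground roots, where 1 of the 42 genes was called, 5 of 11 green shoot markers were also lower at 8 d. Their summed level was 106 FPKM at 8 d and 260 FPKM at 4 d. There 5 of 13 seed reserve markers had 0 FPKM at 8 d and together 134 FPKM at 4 d. Of 10 root markers 3 were lower there, with a summed level of 87.9 FPKM at 8 d and 261 FPKM at 4 d. SCARECROW was among these 3, with 7.87 FPKM at 8 d and 13.3 FPKM at 4 d. In Sku5 ground roots, where none of the 42 was listed, 3 of 11 green shoot markers were lower at 8 d. So was 1 of 10 root markers. The part of these marker differences in the ribosomal result was not tested.

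Few of these genes were listed in the other 3 age comparisons. On the ground in WS, 1 gene was lower at 8 d, 3.7% of the 27 listed genes, against 12.1% of all loci. The gene is 2.38% of the 42, and the lower loci were 2.14% when set over 27562 protein-coding genes. It was the S10 gene AT5G52650, whose protein sits in the head near the mRNA entrance, with 371 FPKM at 8 d and 495 FPKM at 4 d (log2 fold change -0.42, SE 0.25, q = 0.0182). The same gene in WS flight roots had 400 FPKM at 8 d and 551 FPKM at 4 d (log2 fold change -0.46, SE 0.27, q = 0.0114). The difference of the age effects, flight minus ground, was -0.04 with an SE of 0.37. AT5G52650 is the only gene called in both of these tables, so for the other 18 the difference between flight and ground was not tested.

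In Sku5 flight roots 1 gene was lower at 8 d, 3.7% of the 27 listed genes, against 22.1% of all loci. The gene is 2.38% of the 42, and the lower loci were 3.91% when set over protein-coding genes. It was the S9 gene AT5G39850, with 114 FPKM at 8 d and 192 FPKM at 4 d, a log2 fold change of -0.75 (SE 0.31, q = 0.00125). In Sku5 ground roots none of the 42 was listed. There 10.3% of all loci were lower, or 1.83% when set over protein-coding genes. A count of 19 in one table and 0 or 1 in another does not show that the age effects differ.

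Spaceflight itself was set against ground in 4 comparisons. None of the 42 genes was listed for WS at 4 d, where 1.33% of all loci were lower, or for WS at 8 d, where 9.79% were lower. Set over protein-coding genes, these shares were 0.236% and 1.73%. In Sku5 roots at 4 d a single gene was called, and it is the only rise among the 40 entries. The S9 gene AT5G39850 had 179 FPKM in flight and 82.3 FPKM on the ground, a log2 fold change of 1.12 (SE 0.37, q = 0.00207). In this comparison 12.3% of all loci were higher, or 2.18% when set over protein-coding genes, and 1 gene is 2.38% of the 42. The bacterial counterpart of S9 helps to unwind messenger RNA where it enters the small subunit.

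The high level of AT5G39850 in Sku5 flight roots at 4 d is the common side of its 2 entries, which share that group, and so the rise with flight and the fall with age are not independent. Seed reserve markers stood high in the same group. The 3 of 13 listed for flight over ground had a summed level of 1635 FPKM in flight and 2.88 FPKM on the ground, where AT4G27160 was listed at 0. The 7 of 13 listed for age had 262 FPKM at 8 d and 6867 FPKM at 4 d. Their part in the S9 result was not tested.

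In Sku5 roots at 8 d, 2 genes were lower in flight, 4.76% of the 42. Of all loci 22.7% were lower, or 4.02% when set over protein-coding genes. The S19 gene AT5G15520, of a head protein, had 242 FPKM in flight and 347 FPKM on the ground (log2 fold change -0.52, SE 0.21, q = 0.00136). The S14 gene AT2G36160, of a platform protein, had 1016 FPKM in flight and 1255 FPKM on the ground (log2 fold change -0.30, SE 0.19, q = 0.015). They are 7.41% of the 27 listed genes. In the same groups 5 of 13 seed reserve markers were higher in flight, with a summed level of 255 FPKM in flight and 3.93 FPKM on the ground, where AT3G27660 and AT4G27150 were at 0. The root marker CASP1 (AT2G36100), of the Casparian strip, was lower, with 155 FPKM in flight and 265 FPKM on the ground, and no green shoot marker was listed. The part of these markers was not tested. The other 55 small-subunit genes had 16 lower and 1 higher here, and the higher one was AT3G18130, a gene for the scaffold protein RACK1.

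For WS at 8 d, some flight to ground ratios can be formed from levels in the other tables. The level of a group in one table was a fixed multiple of its level in another, at most 10.8% apart, and 1 factor per table brought all tables to a common scale within 0.0045 on the log2 scale. On that scale 5 of the 42 genes had both values, and their log2 ratios of flight to ground, which were not called, lay between -0.23 and 0.20. A gene has both values only where other comparisons called it. RPS18C, AT3G04840, AT5G16130 and AT1G58380 were called lower at 8 d in WS flight roots and higher in WS than in Sku5 ground roots. Such a choice favours low flight to ground ratios, so these ratios do not show the flight effect of the 42 genes. At the low end the S3a gene AT3G04840 had 863 FPKM in flight and 1012 FPKM on the ground. At the high end the S10 gene AT5G52650 had 419 FPKM in flight and 364 FPKM on the ground.

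Sku5 was set against WS in 3 comparisons. On the ground at 4 d none of the 42 genes was listed. There 4.06% of all loci were lower, or 0.718% when set over protein-coding genes. In spaceflight at 8 d, 10 genes were lower in Sku5 and none higher, 37% of the 27 listed genes, against 17% of all loci lower. The 10 are 23.8% of the 42, and the lower loci were 3.01% when set over protein-coding genes. The log2 fold changes of the 10 lay between -0.47 and -0.28, with a median of -0.38 and a median SE of 0.20. All 829 lower loci had a median of -0.53. Of the 266 loci at or above the level of the lowest called ribosomal gene, 95.9% were lower. In the same comparison RBCS1A (AT1G67090), for the small subunit of Rubisco, was the 1 of 11 green shoot markers listed, with 63.3 FPKM in Sku5 and 98.5 FPKM in WS. Of 13 seed reserve markers 2 were listed, AT3G22640 and AT4G27150, with a summed level of 29.8 FPKM in Sku5 and 0 FPKM in WS. No root marker was listed, and the part of these markers was not tested.

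AT5G15520 (S19) had 242 FPKM in Sku5 and 335 FPKM in WS flight roots, a log2 fold change of -0.47 (SE 0.20, q = 0.00182). The other S19 copies were lower as well, AT5G61170 with 977 FPKM in Sku5 and 1263 FPKM in WS, and AT3G02080 with 1290 FPKM in Sku5 and 1612 FPKM in WS. In this comparison S19 was the only protein of which every copy in the set was called. Loss of a copy of the human S19 gene is a cause of Diamond-Blackfan anaemia.

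AT2G36160 (S14) had 1015 FPKM in Sku5 and 1356 FPKM in WS (log2 fold change -0.42, SE 0.20, q = 0.00182). Its copy AT3G52580 had 502 FPKM in Sku5 and 656 FPKM in WS (log2 fold change -0.39, SE 0.19, q = 0.00182). The S16 gene AT2G09990, with the near-identical copy shown above, had 514 FPKM in Sku5 and 684 FPKM in WS (log2 fold change -0.41, SE 0.24, q = 0.012). In yeast, S16 reaches toward the tRNA in the decoding centre. The S11 gene AT5G23740, of a body protein, had 728 FPKM in Sku5 and 947 FPKM in WS (log2 fold change -0.38, SE 0.19, q = 0.00182).

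The other 3 called genes were of head proteins. The S10 gene AT5G52650 had 353 FPKM in Sku5 and 444 FPKM in WS, the third table to list it and the most for any of the 42. The S18 genes AT1G22780 and AT1G34030 had 1124 and 726 FPKM in Sku5, against 1380 and 884 FPKM in WS. In all, 7 of the 10 were genes of head proteins, 2 of platform proteins and 1 of a body protein. Their proteins are small, between 143 and 179 residues. At q under 0.01, 5 of the 10 calls remain. The S14 gene AT2G36160 and the S19 gene AT5G15520 were also the ones called for flight over ground in Sku5, and those tables share the Sku5 flight group at 8 d.

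On the ground at 8 d, 6 genes were lower in Sku5 and none higher, 22.2% of the 27, against 4.24% of all loci lower. The 6 are 14.3% of the 42, and the lower loci were 0.751% when set over protein-coding genes. The log2 fold changes of the 6 lay between -0.42 and -0.31, with a median of -0.34 and a median SE of 0.18. All 207 lower loci had a median of -0.46, and 318 loci were higher. Of the 141 loci at or above the level of the lowest called ribosomal gene, 74.5% were lower. Beside these calls, the green shoot marker RBCS1A had 69.4 FPKM in Sku5 and 96.5 FPKM in WS, and was the 1 of 11 listed. The root marker CASP1 was the 1 of 10 listed, with 262 FPKM in Sku5 and 161 FPKM in WS. No seed reserve marker was listed, and the part of these markers was not tested.

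AT3G04840 (S3a) had 789 FPKM in Sku5 and 1058 FPKM in WS ground roots, a log2 fold change of -0.42 (SE 0.17, q = 0.00381). RPS18C (AT4G09800) had 657 FPKM in Sku5 and 859 FPKM in WS (log2 fold change -0.39, SE 0.19, q = 0.00381). A locus that merges the S7 gene AT5G16130 with its neighbour AT5G16120 had 1320 FPKM in Sku5 and 1686 FPKM in WS (log2 fold change -0.35, SE 0.18, q = 0.00381), and its value cannot be split between the genes.

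A second S7 gene, AT1G48830, had 538 FPKM in Sku5 and 673 FPKM in WS (log2 fold change -0.32, SE 0.18, q = 0.0219). The S2 gene AT1G58380 had 150 FPKM in Sku5 and 188 FPKM in WS (log2 fold change -0.33, SE 0.20, q = 0.0348). The S4 gene AT2G17360 had 576 FPKM in Sku5 and 716 FPKM in WS. S2 and S4 are body proteins. At q under 0.01, 3 of the 6 calls remain.

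Within the set, the genes called in flight and on the ground did not overlap: 0 of the 10 and 0 of the 6 were shared. These 2 tables share no group. Small-subunit genes outside the set did overlap. AT3G47370, AT5G03850, AT2G19750, AT4G39200, AT1G23410 and AT5G47930 were lower in Sku5 in both tables. The others lower on the ground, AT3G04770 and AT5G02960, were not listed in flight. Over all loci, 89 were lower in both tables, 10.7% of the 829 in flight and 43% of the 207 on the ground. The proteins of the called genes of the set had between 143 and 179 residues in flight and between 152 and 284 on the ground. Whether the genotype effect differs between flight and ground was not tested, since no gene of the set was called in both.

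**Figure D3:**
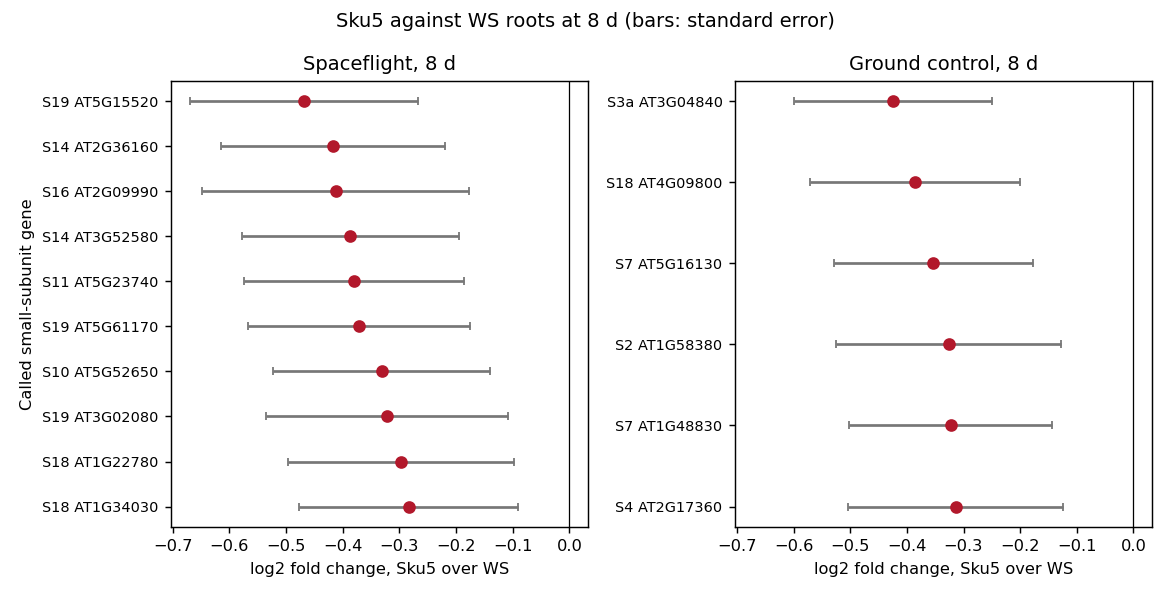
Log2 fold change of Sku5 over WS roots at 8 d for the called small-subunit genes in spaceflight (left, 10 genes) and on the ground (right, 6 genes); bars are the SE from the deposited test score. All points lie below 0, between -0.47 and -0.28 in flight and between -0.42 and -0.31 on the ground, and the bars overlap among the genes of a panel.

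Several genes fell in both an age and a genotype comparison. RPS18C, the S3a gene AT3G04840, the merged S7 locus and the S2 gene AT1G58380 were lower at 8 d than at 4 d in WS flight roots and lower in Sku5 than in WS ground roots, in tables without a common group. Those 4 are 4 of the 6 genes called on the ground and 4 of the 19 called with age. Over all loci, 42 were lower in both tables, 20.3% of the 207 on the ground and 6.93% of the 606 with age. The S19 genes AT5G61170 and AT3G02080, the S14 gene AT3G52580, the S18 gene AT1G34030 and the S10 gene AT5G52650 were called both with age in WS flight roots and between genotypes in flight. Those tables share the WS flight group at 8 d.

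The related lists moved the same way in the main comparisons. For age in WS flight roots, 23 of 55 other small-subunit genes and 41 of 136 large-subunit genes were lower and none higher, with medians of -0.59 and -0.51. These are 41.8% and 30.1%, and all lower loci were 2.2% when set over protein-coding genes. For Sku5 over WS in flight at 8 d, 28 of the 55 and 56 of the 136 were lower and none higher, with medians of -0.46 and -0.42. Here the shares are 50.9% and 41.2%, against 3.01% over protein-coding genes. On the ground the counts were 8 of 55 and 21 of 136, again with none higher, or 14.5% and 15.4%, against 0.751%. For flight over ground in Sku5 at 8 d, 23 large-subunit genes were lower and 3 higher, or 16.9% and 2.21%. Set over protein-coding genes, 4.02% of loci were lower there and 1.96% higher.

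Genes that build or serve ribosomes were called in both directions. Of 18 ribosome biogenesis genes, 3 were lower with age in WS flight roots, among them the nucleolin gene NUC-L1 (AT1G48920), with 128 FPKM at 8 d and 214 FPKM at 4 d. Another of the 3, NOP56 (AT1G56110), lies in a merged locus with the elongation factor gene LOS1 (AT1G56070), and its value cannot be assigned to either. For flight over ground in Sku5 at 8 d, 5 of the 18 were higher and none lower, 1 of the 5 in a merged locus. Of the 18, 11 were listed in any comparison. The 5 are 27.8% of the 18. Of all loci 11.1% were higher, or 1.96% when set over 27562 protein-coding genes. NUC-L1 had 187 FPKM in flight and 117 FPKM on the ground. Of 14 elongation factor genes, 6 were listed in any comparison, and 2 were higher for flight over ground in Sku5 at 8 d and none lower. The 2 are 14.3% of the 14, to be set beside the same 1.96%. The elongation factor gene AT5G60390 had 2230 FPKM in flight and 1482 FPKM on the ground. For flight over ground in WS at 8 d, 3 of the 14 were higher (21.4%), against 1.49% of loci over protein-coding genes. With age, 3 of the 14 were lower in WS flight roots (21.4%) and 2 in WS ground roots (14.3%). The lower loci there were 2.2% and 2.14% over protein-coding genes. Of 7 TOR pathway genes, 2 were listed, the kinase gene TOR and RAPTOR1, both lower with age in Sku5 flight roots, and RAPTOR1 also in WS ground roots.

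**Figure D4:**
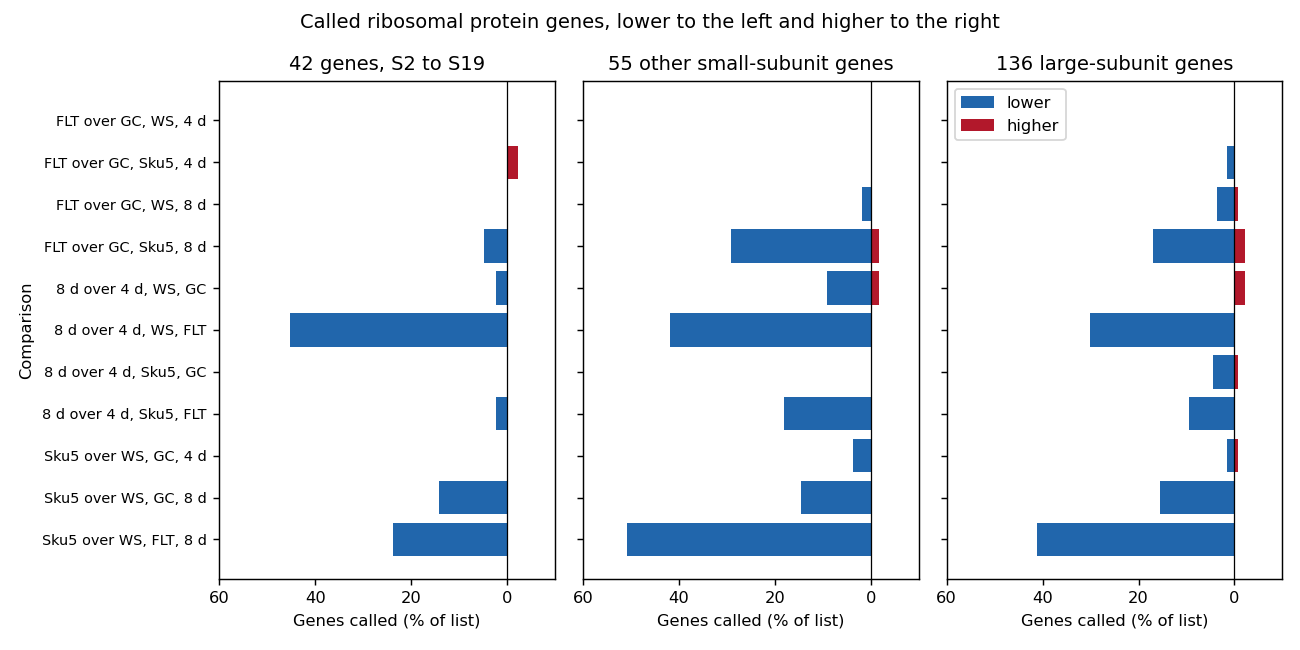
Percent of the genes of each list called lower (blue, left) or higher (red, right) in each comparison (rows), for the 42 genes, the 55 other small-subunit genes and the 136 large-subunit genes. The longest bar of the 42 is for age in WS flight roots, and those of the other lists are for Sku5 over WS in flight at 8 d.

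Transcript length moved with direction in the 8 d tables. The annotated transcripts of the 42 genes were 768 to 1653 nt long, with a median of 1061 nt, against a median of 1514 nt over 27562 protein-coding genes and 825 nt for the other 55 small-subunit genes. For Sku5 over WS in flight at 8 d, single-gene loci had a median of 903 nt where lower and 2306 nt where higher. On the ground at 8 d these medians were 944.5 nt and 2033 nt. Among loci with a length in the range of the 42 genes, 87.5% were lower in the flight table and 51.3% in the ground table. Of the 266 loci of the flight table at or above the level of the lowest called ribosomal gene, 95.9% were lower.

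For age in WS flight roots the medians were close, 1404 nt for lower and 1429 nt for higher loci, and 48.6% of the loci in the length range were lower. For flight over ground at 8 d in Sku5 they were 1009 nt for lower and 2286 nt for higher loci. Within the 42 genes, the 10 called for Sku5 in flight had a median of 910 nt and the 32 not called one of 1113 nt. The part of transcript length in the genotype result was not tested.

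**Figure D5:**
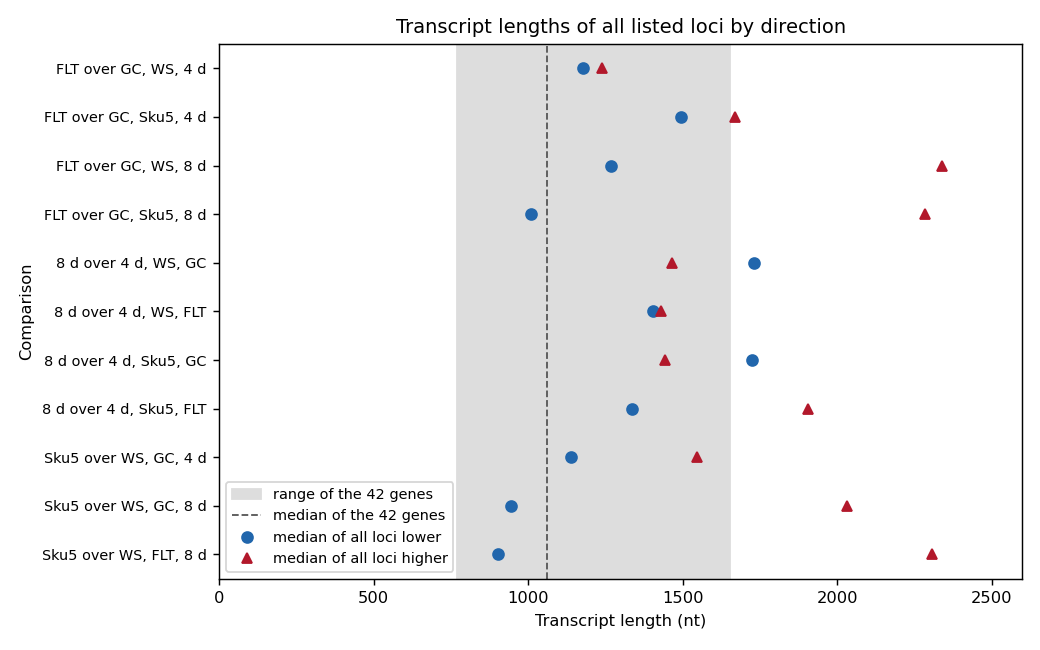
Median transcript length (nt) of all lower (blue circles) and all higher (red triangles) single-gene loci in each comparison (rows), with the range (grey) and median (dashed) of the 42 genes. The medians lie far apart in the 4 comparisons between groups of 8 d roots, with the lower loci shorter, and nearly coincide for age in WS flight roots.

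Promoters of the 42 genes were searched on both strands in the 250 bases before the annotated gene start for 2 elements that plant biologists know from ribosomal protein genes. Site II elements, read as TGGGCC or TGGGCT, bind TCP factors, and the telo-box, read as AAACCCTA, resembles a telomere repeat. Neighbouring matches may overlap. Site II letters were in 26 of the 42 promoters (61.9%), against 19.2% of 27443 promoters of protein-coding genes. The telo-box was in 8 of 42 (19%), against 4.49%. Listed genes had site II letters in 16 of 27 promoters and unlisted ones in 10 of 15. Of the 19 genes lower with age in WS flight roots, 13 had them.

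The S3a gene AT3G04840, lower with age in WS flight roots and in Sku5 ground roots, is shown as an example with a match. The 200 bases before its start (chr3:1329371-1329570, plus strand) are given with the site II letters in capitals.
AT3G04840: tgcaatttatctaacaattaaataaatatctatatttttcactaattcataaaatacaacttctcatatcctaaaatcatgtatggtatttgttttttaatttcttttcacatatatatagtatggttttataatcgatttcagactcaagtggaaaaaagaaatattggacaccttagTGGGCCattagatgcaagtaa
RPS18C, the S9 gene AT5G39850 and the S10 gene AT5G52650 had no match to either element. AT5G52650 is the gene called in the most comparisons. A lack of a match means only that these letters are not in the window searched.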

How the data were processed

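RNA of dissected roots was sequenced from 32 samples, 4 in each of 8 groups. Per the labels' protocols, the authors amplified cDNA with a SMART-Seq kit for low input and prepared it with a Nextera kit. The submitters' processing notes list STAR 2.5.1b, Cufflinks, Cuffdiff, Picard, Trimmomatic 0.36 and FastQC 0.11.2; what each did, and the genome build, are not given in the sources used here. Per the file headers, the authors deposited 1 FPKM value per group, a log2 fold change, a test score, and a p-value and q-value for each locus, with p-values no smaller than 5e-05.

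Directions were set as FLT over GC, 8 d over 4 d and Sku5 over WS. Members were matched by identifier after splitting the gene names of merged loci. No model was refitted, as the tables hold called loci only. Coordinates of the files did not match TAIR10.1 (6.21% of 4446 loci overlapped their gene), so they were not used. Coding identity came from blastn 2.17.0, figures from matplotlib 3.10.9. Scripts were tested on simulated data. The members, gene lists and named genes (the 5 largest changes per comparison, and the most often called) were chosen with earlier results of these data known. The other lists follow general knowledge; 2 pseudogenes were dropped. Alternatives were a stricter q, a minimum fold, single-gene loci, all small-subunit genes, recentring, an FPKM minimum and leaving out near-identical genes. The planned protein comparison was not made. The promoter sequence of 1 further gene is not reported here.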

Additional observations from a re-analysis of the deposited data

How the results depend on the processing

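No gene of the 42 changed direction under the count alternatives, which only add or remove calls. With q under 0.01 the calls were 6 of 19 for age in WS flight roots, 5 of 10 for Sku5 over WS in flight at 8 d, 3 of 6 on the ground at 8 d, 1 of 2 for flight over ground in Sku5 at 8 d, and 0 of 1 for age in WS ground roots. With a change of at least 1.5-fold they were 4, 0, 0, 0 and 0 in the same order, while both S9 calls stayed. With all small-subunit genes the counts were 42, 38, 14, 19 and 7, with 1 higher in each of the last 2 of these, and 11 for age in Sku5 flight roots, 2 for Sku5 over WS on the ground at 4 d and 1 for flight over ground in WS at 8 d. Divided by the median fold of all loci of the table, the median log2 fold change of called genes became -0.0054 for age in WS flight roots, -0.84 for Sku5 over WS on the ground at 8 d, and 0.0043, with the sign turned, for Sku5 over WS in flight at 8 d; this follows from table medians of -0.50, 0.50 and -0.38, set by called loci only. Single-gene loci, an FPKM minimum of 10 and, chosen after seeing the data, leaving out near-identical genes moved no count or median beyond 1.5-fold. No paired analysis was possible because the tables hold 1 value per group; for the same reason leaving out each replicate and the replicate block were not run. Depth is unknown, and unlisted genes have no value.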
